A study of Mus musculus with 9 samples.

Results

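The 9 genes described here are used to mark cells of the embryonic brain's vessel walls and of its meninges. Pdgfrb, Rgs5, Abcc9 and Cspg4 are used as markers of pericytes, and Ogn, Lum, Dcn, Foxc1 and Foxd1 as markers of meningeal and cranial mesenchyme. They were taken by symbol from the 34590 genes listed in each library, and all 9 were found and passed the filter on low counts. RNA was measured in mouse telencephalons, the part of the forebrain that forms the cortex and basal ganglia, at E12.5, in midgestation. The 5 wild-type libraries (WT) and the 4 Lats1/2;Nestin-Cre double knockout libraries (dKO) all came from embryos of a mixed-lineage background. The Lats kinases of the Hippo pathway keep the coactivators YAP and TAZ out of the nucleus, and the series asks whether their loss raises transcription as a whole. Nestin-Cre acts mainly in neural progenitors, and whether it also acted in the vessel wall or mesenchyme of these embryos is not given in the sources used here. Litters are not given either.

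Pericytes sit on the abluminal side of brain capillaries. They are drawn there by PDGF-BB, which endothelial cells release and which binds the receptor PDGFR-beta on the pericyte. The meninges form from neural crest and mesoderm and wrap the telencephalon in a collagen-rich sheath. That sheath is bound by small leucine-rich proteoglycans, secreted proteins that attach to collagen fibrils, and forkhead transcription factors such as Foxc1 are needed for it to form.

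YAP and TAZ reach DNA through TEAD factors, so the promoters of the members were searched for the letters GGAATG, the core of the TEAD motif, on both strands. RefSeq promoter windows of 250 bases before the start (GRCm38.p6) were at hand for 6 of the 9 genes, Abcc9, Cspg4, Foxc1, Foxd1, Ogn and Rgs5. The letters were found once in the Ogn window and once in the Abcc9 window, and not in the other 4. Of 32851 such windows in the genome, 12.6% held them. The Ogn window is shown because Ogn is the member whose level differed most between the groups. It lies at chr13:49607765-49608014 on the plus strand, ends at the base before the start, and has the match in capitals, with its first base 86 bases before the start.
Ogn: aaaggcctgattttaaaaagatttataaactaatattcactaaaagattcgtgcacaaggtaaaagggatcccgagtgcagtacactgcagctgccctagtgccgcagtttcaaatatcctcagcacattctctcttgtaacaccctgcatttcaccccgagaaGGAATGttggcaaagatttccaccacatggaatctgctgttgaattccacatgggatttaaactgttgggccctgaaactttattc
The stretch around the Abcc9 match, which begins 219 bases before that start, lies at chr6:142702476-142702505 on the minus strand and is shown for comparison, since Abcc9 had almost the same relative level in both groups.
Abcc9: tggtcctgaatgGGAATGgccggagtgatg
A match describes the letters of a window and is not a measured binding site.

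Levels are given on 2 scales. The TMM-scaled CPM, a count scaled to a common library size, gives a gene's level relative to the other genes of its library. The count per 10000 spike-in counts gives its level against an ERCC mix of synthetic RNAs that was added per counted cell before extraction. Libraries held 12906561 to 45803152 gene counts. The share of reads in no gene was 39.3% to 41.3% in WT 2, 3 and 4 and 32.0% to 35.6% in the other 6 libraries, so results are also given without those 3. Gene counts per spike-in count were 58.1 ± 6.10 in WT (SD, n = 5) and 79.1 ± 5.90 in dKO (SD, n = 4), a 1.36-fold difference (exact permutation test, two-sided, p = 0.00794). Without WT 2, 3 and 4 the difference was as large (log2 0.45), and the exact permutation p = 0.0667 was the smallest that the 15 assignments allow. The median gene therefore lay 0.43 above 0 on the log2 scale per spike-in count and -0.01 relative to all genes. Lats1 ran from 125 to 136 CPM in WT and from 58.8 to 61.3 CPM in dKO, lower as labelled. Lats2 went the other way, at 36.3 to 56.4 CPM in dKO. It rose by 0.69 on the log2 scale relative to all genes (SE 0.18, edgeR adjusted p = 0.0144) and by 1.12 per spike-in count (adjusted p = 1.19e-06). Without WT 2, 3 and 4 its relative value was 0.42 and did not pass (adjusted p = 0.209). The excised exons are not given, so gene counts of Lats2 check nothing, and those of Lats1 do not show how much intact transcript was left. Emx1, a homeobox gene of the dorsal telencephalon, was detected in every library, at 45.2 to 56.5 CPM in WT and 38.5 to 44.2 CPM in dKO. It fell by 0.30 on the log2 scale relative to all genes (edgeR adjusted p = 0.0112). In all, 5 of 10 telencephalon markers fell, beside 12% of all genes, and their summed level was 805 to 838 CPM in WT and 644 to 682 CPM in dKO. Without WT 2, 3 and 4 the relative value of Emx1 did not pass (-0.16, adjusted p = 0.284). In that fit 2 of the 10 fell (Dlx1 and Dlx2), beside 0.949% of all genes. Per spike-in count, with all libraries, Emx1 was 0.13 (edgeR adjusted p = 0.382), and 3 of the 10 rose and 2 fell, beside 61.1% and 0.698% of all genes.

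Of the 9 genes, 1 rose relative to all genes (Ogn) and 0 fell by edgeR's quasi-likelihood test at an adjusted p under 0.05. DESeq2 and limma-voom also called 1 rise and 0 falls, and 2 of the 9 had an unadjusted p under 0.05 in edgeR, Ogn upward and Rgs5 downward. Over all 17182 genes tested, 13.7% rose and 12% fell, so a count of 1 in 9 is near the background. The median relative log2 fold change of the 9 was 0.04, with 5 above 0 and 4 below. Per spike-in count, 6 rose (Ogn, Lum, Foxd1, Foxc1, Pdgfrb and Abcc9) and 0 fell, with 0 falls also at an unadjusted p and by DESeq2 and limma-voom. Over all genes 61.1% rose and 0.698% fell on that scale, and the members' median of 0.48 stood beside 0.43 for all genes. DESeq2 called 4 of the 6 rises, without Foxc1 and Foxd1. With WT 2, 3 and 4 left out, 3 rose per spike-in count (Ogn, Lum and Abcc9), beside 49.1% of all genes, and 0 rose or fell relative to all genes, beside 2.51% and 0.949% of all genes. In whole tissue, fewer cells of a type and less RNA per cell cannot be told apart.

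**Figure D1:**
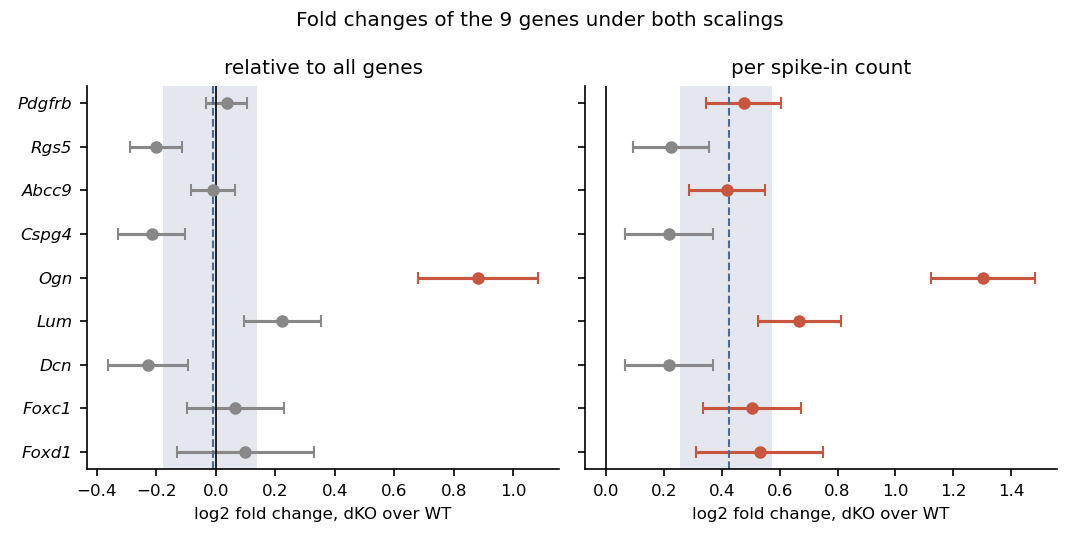
Log2 fold change of dKO over WT for the 9 genes, relative to all genes on the left and per spike-in count on the right. Points are edgeR estimates with bars of 1 SE, red where the adjusted p is under 0.05, the dashed line is the median of all 17182 genes and the band spans their quartiles. Ogn lies outside the band on both scales, at 0.88 and 1.30.

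The 4 pericyte genes showed no relative change that passed the test. Pdgfrb, the receptor for PDGF-BB, stood at 44.1, 40.3, 41.5, 39.2 and 47.6 CPM in WT 1 to 5 and at 39.4, 45.6, 46.1 and 43.4 CPM in dKO 1 to 4. The dKO values all fell within the WT range, and the relative log2 fold change was 0.04 (SE 0.07, adjusted p = 0.743). Per spike-in count Pdgfrb rose from 24.8 ± 3.56 to 34.5 ± 4.77 counts per 10000 spike-in counts (SD, n = 5 and n = 4), a log2 value of 0.48 (SE 0.13, edgeR adjusted p = 0.0023), with 3 of 4 dKO libraries above every WT library. That value was 0.36 without WT 2, 3 and 4 and did not pass (adjusted p = 0.0625).

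Abcc9 encodes SUR2, the sulfonylurea receptor subunit of the ATP-sensitive potassium channel of mural cells. It stood at 23.5, 27.3, 30.3, 26.2 and 29.5 CPM in WT and at 28.8, 25.8, 27.3 and 27.1 CPM in dKO. The group means were 27.4 ± 2.69 and 27.3 ± 1.26 CPM (SD, n = 5 and n = 4), and the relative log2 fold change was -0.01 (SE 0.07, adjusted p = 0.944). Per spike-in count Abcc9 ran from 12.8 to 19.3 in WT and from 20.2 to 22.4 counts per 10000 spike-in counts in dKO. The groups did not overlap on that scale, as for 48.4% of all genes in the upward direction, and the log2 fold change was 0.42 (SE 0.13, edgeR adjusted p = 0.00648). It passed in all 17 alternative analyses, WT 2, 3 and 4 left out included. The annotated exons of Abcc9 share 158 of their 8373 bases with a gene on the opposite strand, 5330439B14Rik, and the strand setting of the counting is not given in the sources used here.

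Rgs5 encodes a regulator of G protein signalling that shortens signals from G protein-coupled receptors in mural cells. Its levels were 38.2, 43.3, 49.1, 42.6 and 46.9 CPM in WT and 42.4, 34.3, 35.1 and 42.0 CPM in dKO. The libraries dKO 2 and 3 lay below every WT library and the others lay within the WT range. The relative log2 fold change was -0.20 (SE 0.09, unadjusted p = 0.0427, edgeR adjusted p = 0.117), and the value per spike-in count was 0.22 (SE 0.13, adjusted p = 0.138). Cspg4, the NG2 proteoglycan of pericytes and oligodendrocyte precursors, stood at 10.01, 12.4, 12.8, 11.6 and 11.2 CPM in WT and at 9.13, 8.66, 12.3 and 10.005 CPM in dKO. Its relative log2 fold change was -0.22 (SE 0.11, adjusted p = 0.185) and its value per spike-in count 0.22 (SE 0.15, adjusted p = 0.212). Without dKO 3 the relative value of Cspg4 was -0.33 and passed (adjusted p = 0.0314). Cells of the oligodendrocyte lineage could share Cspg4. Among the genes used as their markers, Olig2 stood at 12.2 to 18.95 CPM in WT and 4.15 to 18.1 CPM in dKO. Sox10 was low, at most 1.68 CPM. Whether such cells were present, and their part in the level of Cspg4, was not tested.

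**Figure D2:**
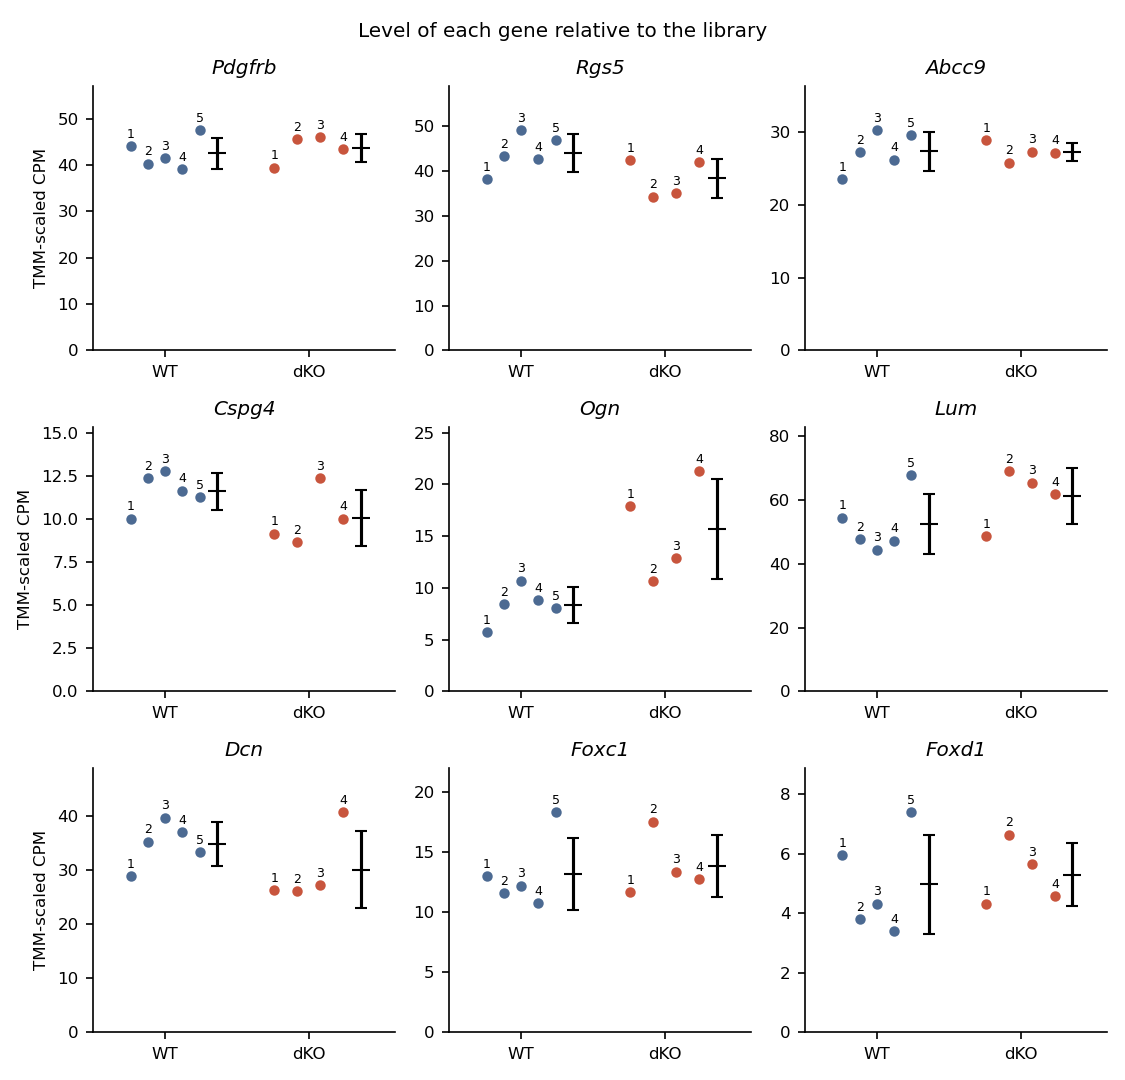
Level of each of the 9 genes in TMM-scaled CPM in every library, with WT in blue and dKO in red. Points carry the replicate number and bars give the mean and SD of each group. In Ogn 3 of the 4 dKO libraries lie above the highest WT library, and in Dcn and Cspg4 3 of the 4 lie below the lowest. In Cspg4 dKO 4 is nearly level with WT 1 (10.005 and 10.01 CPM).

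Among the meningeal genes, Ogn stood apart. It encodes osteoglycin (mimecan), a small leucine-rich proteoglycan of collagen-rich connective tissue. Ogn lay at 5.73, 8.44, 10.7, 8.80 and 8.06 CPM in WT and at 17.9, 10.6, 12.9 and 21.3 CPM in dKO. The libraries dKO 1, 3 and 4 exceeded every WT library, and dKO 2 was level with WT 3, the highest WT library. The group means were 8.35 ± 1.78 and 15.7 ± 4.81 CPM (SD, n = 5 and n = 4). Ogn rose 1.84-fold relative to all genes (log2 0.88, SE 0.20, edgeR adjusted p = 0.00859). Per spike-in count it was 3.11, 4.202, 6.83, 5.37 and 5.04 counts per 10000 spike-in counts in WT and 12.52, 8.98, 10.1 and 17.6 in dKO. The groups did not overlap on that scale, as for 48.4% of all genes in the upward direction, and the rise was 2.47-fold (log2 1.30, SE 0.18, edgeR adjusted p = 5.6e-07).

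The rise of Ogn per spike-in count passed in all 17 alternatives, with log2 values from 1.10 to 1.55. The relative rise passed in 16 of 17. It was larger without WT 2, 3 and 4 (log2 1.13, SE 0.28) and did not pass (edgeR adjusted p = 0.063). Ogn lies inside the span of Cenpp on the other strand, with no shared exonic bases in the annotation. Cenpp, a centromere protein gene, stood at 12.1 to 14.9 CPM in WT and 14.8 to 16.1 CPM in dKO (relative log2 0.18, SE 0.07, adjusted p = 0.0895). The other proteoglycan genes of the Ogn cluster were low: Omd and Aspn stayed under 0.33 CPM in every library and were not tested, and Ecm2 stood at 1.41 to 4.43 CPM in WT and 2.06 to 2.68 CPM in dKO (relative log2 -0.19, SE 0.28, adjusted p = 0.662).

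Lum and Dcn encode lumican and decorin, the other small leucine-rich proteoglycans among the 9, and are neighbours in the genome. Lum stood at 54.5, 47.8, 44.5, 47.3 and 67.8 CPM in WT and at 48.7, 69.1, 65.4 and 61.7 CPM in dKO. The groups overlapped, with WT 5 near the top and dKO 1 near the bottom, and the relative log2 fold change was 0.22 (SE 0.13, adjusted p = 0.233). It passed without WT 5 (0.34, adjusted p = 0.035) and was -0.01 without WT 2, 3 and 4. Per spike-in count Lum rose from 30.6 ± 6.96 to 48.7 ± 10.3 counts per 10000 spike-in counts (SD, n = 5 and n = 4), a log2 fold change of 0.67 (SE 0.14, edgeR adjusted p = 0.000222) that passed in all 17 alternatives.

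Dcn stood at 28.8, 35.2, 39.7, 37.0 and 33.3 CPM in WT and at 26.3, 26.1, 27.2 and 40.7 CPM in dKO. The libraries dKO 1, 2 and 3 lay below every WT library and dKO 4 lay above every WT library. The relative log2 fold change was -0.23 (SE 0.13, adjusted p = 0.245), and without dKO 4 it was -0.40 and passed (adjusted p = 0.0115). Per spike-in count it was 0.22 (SE 0.15, adjusted p = 0.211). In dKO 4, then, both Ogn and Dcn had their highest value of all 9 libraries, whereas in dKO 1 Ogn was high and Dcn was low.

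Foxc1 and Foxd1 encode forkhead transcription factors of cranial mesenchyme. Foxc1 stood at 13.0, 11.6, 12.2, 10.7 and 18.3 CPM in WT and at 11.7, 17.5, 13.4 and 12.8 CPM in dKO, and its relative log2 difference was 0.07 (SE 0.16, adjusted p = 0.809). Foxd1 stood at 5.96, 3.81, 4.32, 3.39 and 7.40 CPM in WT and at 4.32, 6.64, 5.65 and 4.58 CPM in dKO, and its relative log2 difference was 0.10 (SE 0.23, adjusted p = 0.795). In both genes WT 5 was the highest library and dKO 2 the next. Per spike-in count Foxc1 rose by a log2 value of 0.50 (SE 0.17, edgeR adjusted p = 0.0108) and Foxd1 by 0.53 (SE 0.22, adjusted p = 0.0348). Neither passed on that scale without WT 2, 3 and 4, where the values were 0.23 (adjusted p = 0.328) and 0.08 (adjusted p = 0.792). Each also failed with dKO 2 left out (adjusted p = 0.0901 and 0.157) or WT 2 left out (0.0758 and 0.163), and Foxd1 failed without WT 4 (0.0763) and without dKO 3 (0.0513).

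**Figure D3:**
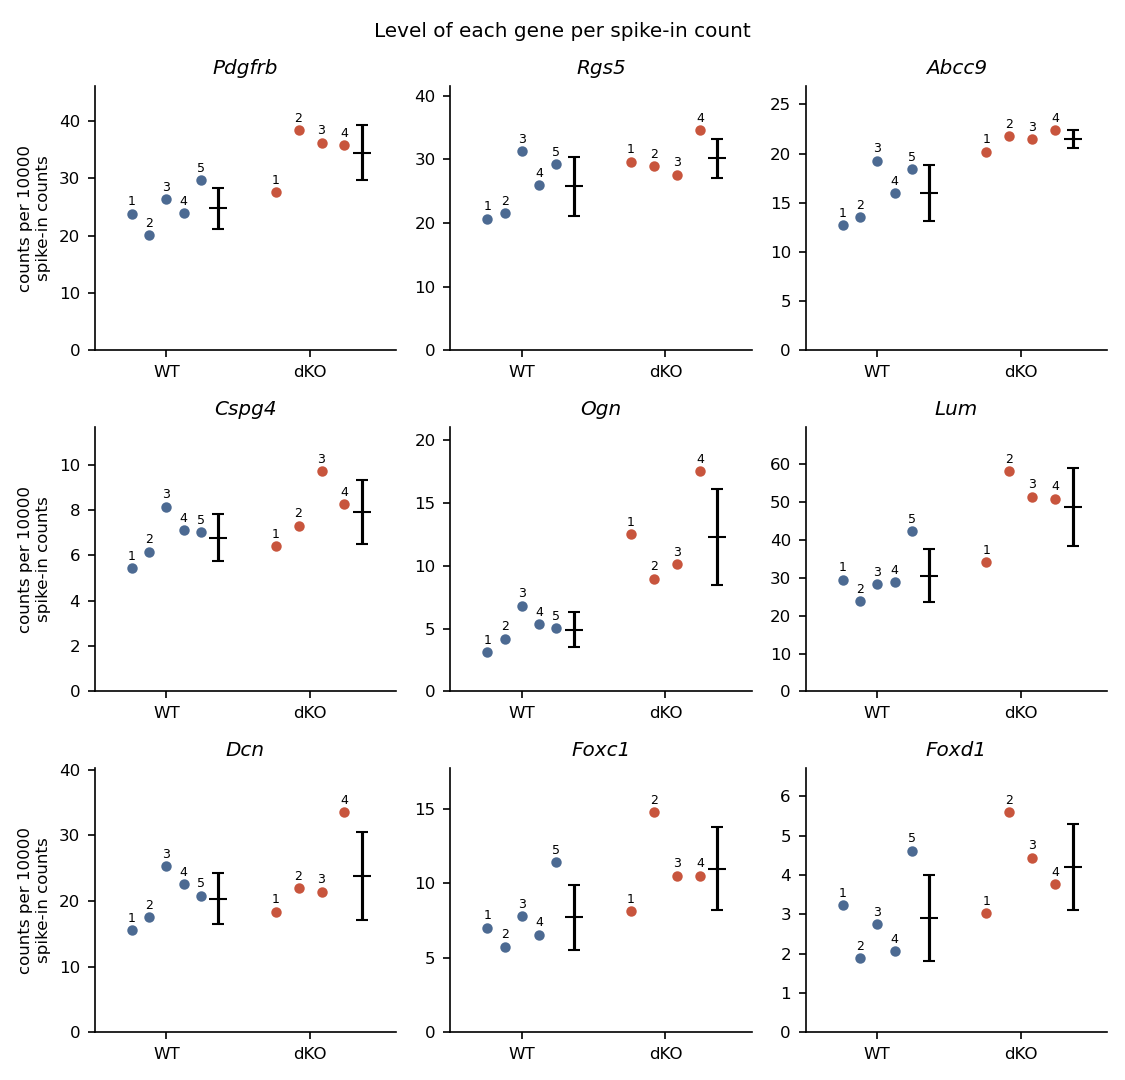
Level of each of the 9 genes in counts per 10000 spike-in counts in every library, with WT in blue and dKO in red. Points carry the replicate number and bars give the mean and SD of each group. The groups are separate in Abcc9 and Ogn and overlap in the other 7 genes, beside 48.4% of all genes that are separate and higher in dKO.

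Per kilobase of annotated exon, Lum was the most abundant of the 9 in WT, at 21.4 ± 3.83 CPM per kb (SD, n = 5). Rgs5 (9.69 ± 0.927) and Pdgfrb (7.76 ± 0.613) followed, and their ranges overlapped. Dcn came next at 5.96 ± 0.699. Abcc9 (3.27 ± 0.322) and Ogn (3.25 ± 0.695) could not be ordered beyond their spread. Foxc1 (2.25 ± 0.513) had a lower mean and overlapped both, and Foxd1 (0.983 ± 0.330) and Cspg4 (0.973 ± 0.0900) were lowest and level with each other. In dKO, Ogn reached 6.11 ± 1.88 CPM per kb (SD, n = 4) and moved from rank 6 to rank 4, above Dcn at 5.15 ± 1.22, which it overlapped.

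Among libraries of the same group, 8 of the 9 genes varied in 2 sets, which were picked after their values were seen. The measure was each library's log2 CPM minus the mean of its own group, over 9 libraries that share 2 group means. Pdgfrb, Lum, Foxc1 and Foxd1 went up and down together, with Pearson's r from 0.86 to 0.94 over their 6 pairs (Spearman's rho 0.80 to 0.98), and from 0.74 to 0.93 with the 2 farthest libraries left out. Rgs5, Abcc9, Ogn and Dcn did so less closely, with r from 0.36 to 0.91 (rho 0.40 to 0.87). With the 2 farthest libraries left out their range was -0.16 to 0.85, and the pair at -0.16 was Abcc9 and Dcn. Of the 16 pairs between the sets, 15 had r below 0, down to -0.61 for Ogn and Foxd1 (rho -0.70 to 0.02). With the 2 farthest libraries left out, r ran from -0.61 to 0.31 and 3 of the 16 were above 0. Those 3 were Abcc9 with Lum, Foxc1 and Foxd1. Each set held both pericyte and meningeal genes. The 4 genes of the first set were above 0 in WT 1 and 5 and below it in WT 2, 3 and 4. Those 3 libraries had more reads in no gene (39.3% to 41.3%) than WT 1 and 5 (34.4% and 32.5%). Among dKO libraries, dKO 3 had the most such reads (35.6%), with Pdgfrb, Lum and Foxd1 above 0 and Foxc1 just below. The part of that share of reads in this pattern was not tested. Cspg4 was left outside both sets. Its r was above 0 with all 4 genes of the second set (up to 0.45) and below 0 with all 4 of the first (down to -0.30), with rho from -0.38 to 0.63 and, with the 2 farthest libraries left out, r from -0.44 to 0.63.

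Foxc1, Foxd1 and Pdgfrb, of the first set, were higher in the 4 libraries with more embryonic red cell RNA than in the other 5. Hbb-bh1, an embryonic globin of primitive red cells, stood at 270, 149, 153 and 137 CPM in WT 1, WT 5, dKO 2 and dKO 3, and between 27.9 and 49.0 CPM in the other 5. Foxd1 stood between 5.65 and 7.40 CPM in the first 4 and between 3.39 and 4.58 CPM in the others. Lum did not split that way, since dKO 4 at 61.7 CPM exceeded WT 1 at 54.5 CPM. Of 9 red cell markers, summed levels ran from 253 to 1192 CPM in WT and from 230 to 715 CPM in dKO. In WT the same split, WT 1 and 5 against WT 2, 3 and 4, is that of the share of reads in no gene. The part of red cells, of dissection or of that share of reads in these levels was not tested.

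**Figure D4:**
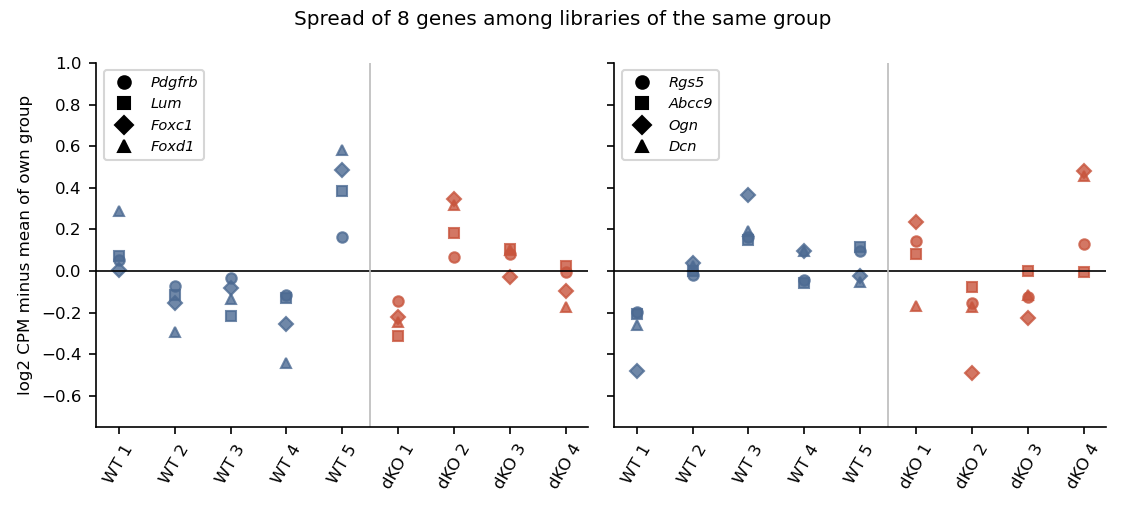
Deviation of log2 CPM from the mean of the library's own group, for Pdgfrb, Lum, Foxc1 and Foxd1 on the left and Rgs5, Abcc9, Ogn and Dcn on the right. Blue marks WT libraries and red marks dKO libraries. On the left WT 5 and dKO 2 lie above 0 in all 4 genes, and on the right WT 1 and dKO 2 lie below 0 in all 4.

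By the rule of greatest likeness, the gene closest to the mean pattern of the 9 among 12542 others was Ubox5 (r = 0.94 over 9 libraries), then Asb8, Xab2, Gbp7, Anapc5, Zfp459, Tgm2, Rwdd2b, Nid1 and Ddx58, the last at 0.89. Nid1 encodes nidogen, a basement membrane protein. The 36 pairs of members had a median r of -0.05, so this mean is not a pattern that all 9 share. The gene closest to each single member by the same measure also had a high r, from 0.95 for Cspg4 to 0.99 for Dcn. A high r among so many genes over 9 libraries therefore does not tie these 10 genes to the members.

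Relative to all genes, 3 of the 4 PDGF ligand genes rose, and neither Pdgfra nor Pdgfrb passed the test. Pdgfb, the endothelial ligand of Pdgfrb, stood at 8.79, 6.88, 6.29, 5.95 and 7.58 CPM in WT and at 14.1, 8.77, 11.2 and 22.1 CPM in dKO. The groups met only at WT 1 and dKO 2, and Pdgfb rose by a relative log2 value of 0.98 (SE 0.23, edgeR adjusted p = 0.00887). Pdgfd, another ligand of that receptor, stood at 1.68, 1.76, 1.21, 0.992 and 1.25 CPM in WT and at 7.12, 3.93, 4.53 and 6.34 CPM in dKO. Its groups did not overlap, as for 12.6% of all genes in the upward direction, and it rose by 2.01 (SE 0.22, adjusted p = 0.000179). Pdgfa, a ligand of Pdgfra, ran from 8.80 to 11.2 CPM in WT and from 10.8 to 17.02 CPM in dKO and rose by 0.55 (SE 0.12, adjusted p = 0.00779). Pdgfc, another ligand gene of Pdgfra, was 0.37 (SE 0.16, adjusted p = 0.107). Pdgfra itself lay between 40.6 and 51.6 CPM in WT and between 30.9 and 63.7 CPM in dKO (relative log2 -0.05, SE 0.17, adjusted p = 0.853). Per spike-in count Pdgfra rose by 0.40 (edgeR adjusted p = 0.0348), beside 0.48 for Pdgfrb, and did not pass without WT 2, 3 and 4 (0.26, adjusted p = 0.257). Of the 6 family genes besides Pdgfrb, 3 rose and 0 fell relative to all genes (4 and 0 at an unadjusted p, and 3 and 0 by DESeq2 and by limma-voom), and their median was 0.46. Over all genes tested, 13.7% rose and 12% fell. Without WT 2, 3 and 4 only Pdgfd passed (1.95, adjusted p = 0.0172), while Pdgfb was 0.77 (adjusted p = 0.226) and Pdgfa 0.52 (adjusted p = 0.129). Whether the difference of a ligand exceeds that of Pdgfrb was not tested.

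Among 18 genes that recruit or settle mural cells, 3 rose and 1 fell relative to all genes, beside 13.7% and 12% of all genes. Their median was 0.04. The angiopoietins went opposite ways. Angpt1, which mural cells release to the endothelial receptor Tie2 (Tek), stood at 16.9 to 23.2 CPM in WT and at 12.51 to 14.9 CPM in dKO and fell by 0.48 on the log2 scale relative to all genes (SE 0.09, edgeR adjusted p = 0.00366). Per spike-in count Angpt1 was -0.05 (adjusted p = 0.751). Angpt2, its endothelial antagonist, ran from 2.79 to 3.67 CPM in WT and from 4.22 to 10.9 CPM in dKO and rose by 1.03 (SE 0.25, adjusted p = 0.0115). Hbegf, an EGF-family ligand of vessels and other tissues, ran from 4.89 to 6.77 CPM in WT and from 6.16 to 9.33 CPM in dKO and rose by 0.46 (SE 0.14, adjusted p = 0.0287). Without WT 2, 3 and 4 none of the 18 passed relative to all genes. There Angpt1 was -0.52 (adjusted p = 0.0692), Angpt2 0.87 (0.239) and Hbegf 0.56 (0.131).

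Of 21 other mural cell markers tested, 5 rose and 0 fell relative to all genes, beside 13.7% and 12% of all genes, and the median was -0.07. At an unadjusted p in edgeR, 3 were lower. These were Gucy1a3 (-0.61, adjusted p = 0.0621), Gucy1b3 (-0.35, adjusted p = 0.0561) and Anpep (-0.41, adjusted p = 0.131). DESeq2 called 4 rises and 1 fall and limma-voom 5 and 2. Mcam, a cell adhesion molecule of vessel walls, stood at 40.6, 46.9, 46.0, 44.7 and 51.2 CPM in WT and at 191, 116, 152 and 269 CPM in dKO. Its groups were far apart, and it rose by a log2 value of 1.98 (SE 0.19, edgeR adjusted p = 7.54e-05). Tagln and Acta2 encode transgelin and alpha smooth muscle actin, contractile proteins of smooth muscle and other cells under tension. Tagln stood at 1.39 to 3.15 CPM in WT and 3.90 to 24.5 CPM in dKO (log2 2.75, SE 0.49, adjusted p = 0.00226). Acta2 stood at 0.704 to 4.76 CPM in WT and 4.30 to 17.3 CPM in dKO (log2 2.54, SE 0.58, adjusted p = 0.00854). Lhfp, a membrane protein gene, rose by 1.26 (SE 0.14, adjusted p = 0.000172), and P2ry14, a purinergic receptor gene under 0.43 CPM throughout, by 1.18 (SE 0.35, adjusted p = 0.0298). Per spike-in count 8 of the 21 rose and 0 fell, beside 61.1% and 0.698% of all genes. Their median on that scale was 0.36, beside 0.43 for all genes. Without WT 2, 3 and 4, 5 rose per spike-in count, beside 49.1% of all genes.

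Kcnj8, Notch3, Vtn and Cd248, other markers used for pericytes, were not among the 5 that rose relative to all genes. These 4 were picked for mention after their values were seen. Kcnj8, the pore subunit that pairs with Abcc9 and its neighbour in the genome, stood at 5.82 to 6.58 CPM in WT and 5.12 to 6.16 CPM in dKO (relative log2 -0.14, SE 0.09, adjusted p = 0.315). Notch3 had 0.00 (SE 0.10, adjusted p = 0.993), Vtn -0.21 (SE 0.13, adjusted p = 0.268) and Cd248 -0.14 (SE 0.13, adjusted p = 0.476). Without WT 2, 3 and 4, Mcam (1.97, adjusted p = 0.0156) and Lhfp (1.11, adjusted p = 0.024) passed. In that fit Tagln was 2.22 (adjusted p = 0.124), Acta2 1.64 (0.205) and P2ry14 0.65 (0.435). In Ogn, Mcam, Lhfp, Tagln, Acta2, Pdgfb, Pdgfd and Angpt2, dKO 1 and dKO 4 were the highest libraries. The lowest of the dKO libraries was dKO 2 in each of these genes, which were listed after their values were seen.

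**Figure D5:**
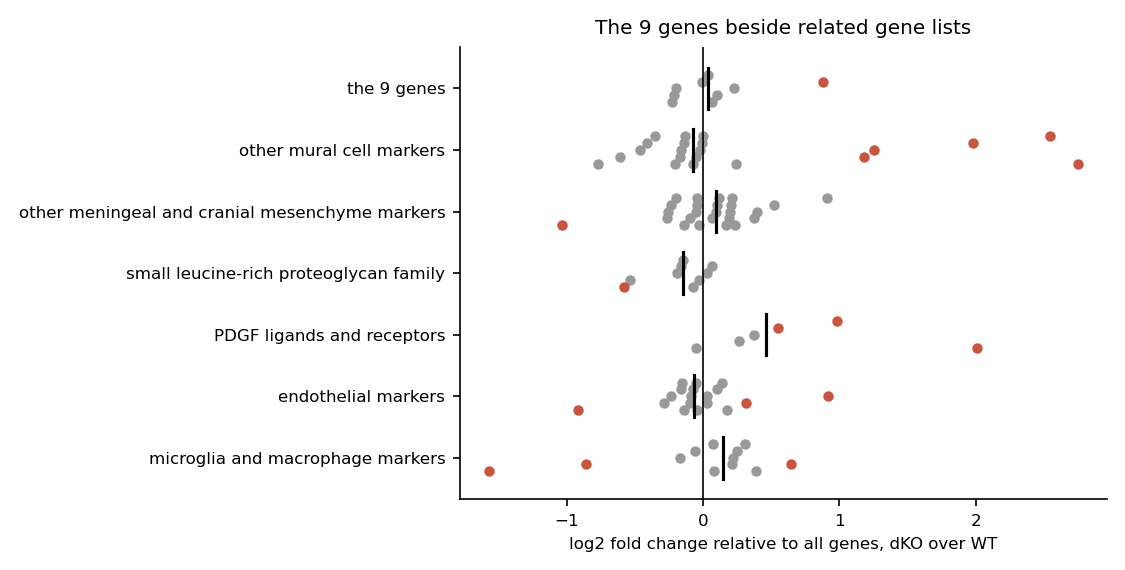
Relative log2 fold change of dKO over WT for the 9 genes and for the tested genes of 6 related lists, with red points where the edgeR adjusted p is under 0.05 and a black bar at each median. The vertical spread of points within a list carries no value. The other mural cell markers hold 5 red points on the right, and the other meningeal markers hold 1, on the left.

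Of 25 other meningeal and cranial mesenchyme markers tested, 0 rose and 1 fell relative to all genes, beside 13.7% and 12% of all genes. The median was 0.09. At an unadjusted p, 1 was higher, and DESeq2 and limma-voom also called 0 rises and 1 fall. Per spike-in count 15 rose and 1 fell, beside 61.1% and 0.698% of all genes, with a median of 0.54 beside 0.43 for all genes. DESeq2 called 10 rises and 0 falls on that scale and limma-voom 9 and 1. Over all 17182 genes DESeq2 called 10371 rises and 79 falls per spike-in count, and limma-voom 10300 and 122. The 15 became 6 without WT 2, 3 and 4, where 49.1% of all genes rose. The gene that fell was Slc6a13, a GABA and taurine transporter of the leptomeninges, which stood at 3.36, 4.61, 7.07, 4.83 and 3.30 CPM in WT and at 1.64, 1.52, 3.16 and 2.93 CPM in dKO. Its groups did not overlap, as for 9.74% of all genes in the downward direction, and it fell by 1.04 on the log2 scale relative to all genes (SE 0.28, edgeR adjusted p = 0.0203) and by 0.61 per spike-in count (adjusted p = 0.0376). It did not pass without WT 2, 3 and 4 relative to all genes (-0.55, adjusted p = 0.394) or per spike-in count (-0.12, adjusted p = 0.75). Col3a1, a fibrillar collagen gene, stood at 500 to 616 CPM in WT and 466 to 675 CPM in dKO (relative log2 0.11, SE 0.10, adjusted p = 0.423). Alx4, a cranial mesenchyme homeobox gene, had a relative log2 difference of 0.52 (SE 0.23, adjusted p = 0.123), with its highest value, 16.2 CPM, in dKO 2.

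For the lists that follow, 13.7% of all genes rose and 12% fell relative to all genes. In the small leucine-rich proteoglycan family, 9 of 14 genes besides Ogn, Lum and Dcn were tested, and 0 rose and 1 fell relative to all genes (0 and 1 at an unadjusted p and by DESeq2, and 0 and 0 by limma-voom). That gene was Prelp, which stood at 1.89 to 3.58 CPM in WT and 1.55 to 2.20 CPM in dKO and fell by 0.58 (SE 0.19, edgeR adjusted p = 0.0452), a call that was lost without WT 2, 3 and 4 (-0.27, adjusted p = 0.602). Bgn, biglycan, was 0.06 (SE 0.11, adjusted p = 0.722). In the forkhead family, 23 of 40 genes besides Foxc1 and Foxd1 were tested, and 2 rose and 4 fell. Foxf2 and Foxq1, which lie beside Foxc1 in the genome, had -0.02 (SE 0.17, adjusted p = 0.945) and 0.02 (SE 0.14, adjusted p = 0.944). In the RGS family 3 of 18 rose and 3 fell, and Rgs4, the neighbour of Rgs5, was at 0.00 (SE 0.16, adjusted p = 0.996). Of the 6 chondroitin sulfate proteoglycan core protein genes besides Cspg4, 1 rose and 4 fell, among them Ncan, neurocan, at 357 to 497 CPM in WT and 288 to 327 CPM in dKO (log2 -0.55, SE 0.08, adjusted p = 0.00106). Ncan is a gene of neural cells, unlike most of the 9. In the forkhead, RGS and chondroitin sulfate lists 0 passed relative to all genes without WT 2, 3 and 4.

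Markers of the other cells a dissected telencephalon could hold were present on both sides. Beside the counts that follow, 13.7% of all genes rose and 12% fell relative to all genes. Microglia and macrophage markers had 1 rise and 2 falls relative to all genes among 12. Of 18 endothelial markers, 2 rose and 1 fell relative to all genes, the median was -0.06, and the summed level ran from 331 to 418 CPM in WT and from 364 to 436 CPM in dKO. Pecam1, which marks all endothelial cells, had a relative log2 difference of 0.17 (SE 0.10, adjusted p = 0.227), and Cdh5, which encodes their adherens junction cadherin, had -0.09 (SE 0.13, adjusted p = 0.651). Mfsd2a, a lipid transporter gene of the blood-brain barrier, rose by 0.92 (SE 0.15, edgeR adjusted p = 0.00152), and Slco1c1, a thyroid hormone transporter gene of the same vessels, fell by 0.92 (SE 0.29, adjusted p = 0.0377). Neither list had a relative call without WT 2, 3 and 4, where Mfsd2a was 0.98 (adjusted p = 0.0536). Surface ectoderm and melanocyte markers were low, and 8 of their 11 genes had a mean under 1 CPM. Their summed levels were 16.3 to 25.2 CPM in WT and 14.8 to 19.6 CPM in dKO. Of 4 tested, 0 rose and 1 fell relative to all genes (Dct, log2 -1.14, edgeR adjusted p = 0.00211). Cartilage and muscle markers summed to 129 to 147 CPM in WT and 86.5 to 134 CPM in dKO, with 7 of 12 genes under 1 CPM. Of 6 tested, 2 rose (Acan and Runx2) and 1 fell (Neb). Without WT 2, 3 and 4, Neb passed and Dct, Acan and Runx2 did not. Of 9 choroid plexus markers, 0 rose and 1 fell relative to all genes (0 and 2 at an unadjusted p, 0 and 1 by DESeq2 and by limma-voom), with summed levels of 131 to 479 CPM in WT and 185 to 252 CPM in dKO. Of 10 diencephalon and retina markers, 0 rose and 0 fell by edgeR, DESeq2 or limma-voom (1 and 0 at an unadjusted p in edgeR). The part of these cells in the levels of the 9 genes was not tested.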

How the data were processed

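Each deposited file gave raw counts by gene symbol for 1 library, as the authors counted them. STAR, HTSeq and the mm9 build are named in the submitters' processing notes. For versions, annotation and strand setting the entry is: not given in the sources used here. Rows naming no gene held 56.3% to 64.2% of all reads and stayed out of library sizes and tests. Genes were kept by filterByExpr (17182 genes) and tested with edgeR 4.0.16 in R 4.3.3 (quasi-likelihood, Benjamini-Hochberg over all genes tested, adjusted p under 0.05), with TMM factors or with the spike-in total as library size. The method was tested on simulated data. Alternatives were DESeq2 1.42.0, limma-voom (limma 3.58.1), other filters and scalings, libraries left out and a replicate block. Likeness used log2(CPM + 0.5). Annotated exon lengths and neighbours came from a GRCm38 annotation, and promoters from RefSeq, since no mm9 genome was used here. The members, lists and tests were chosen with earlier results of these data known. Named genes were all members, Lats1 and Lats2, and in each list the 4 non-members with the smallest relative adjusted p (2 in short lists), not all of which are printed. Others were chosen after their values were seen. Each library was taken as 1 embryo, so p-values measure the spread between these embryos, and replicate libraries differed by more than counting noise.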

Additional observations from a re-analysis of the deposited data

Results flagged for a closer look

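In 36 groups of 4 or 5 libraries checked for a library far from the others, 1 was found. Chance flags about 1 group in 20, so 1 in 36 is not more than chance would give. Dcn in dKO 4 stood at 40.7 CPM, and the nearest dKO library stood at 27.2 CPM.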

How the results depend on the processing

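Over 17 alternatives per scaling no called member changed direction. Relative to all genes, the count of members that rose was 1, with 1 to 2 when 1 library was left out (Lum joined without WT 5) and 0 without WT 2, 3 and 4. The count of members that fell was 0, with 0 to 1 when 1 library was left out (Cspg4 without dKO 3, Dcn without dKO 4). Per spike-in count 6 rose, with 4 to 7 when 1 library was left out and 3 without WT 2, 3 and 4. It was 4 without WT 2 and without dKO 2, where Foxc1 and Foxd1 were lost, and 7 without WT 3, where Rgs5 joined (0.30, adjusted p = 0.0495). The log2 difference of gene counts per spike-in count was 0.45, from 0.39 to 0.50 with 1 library left out and 0.45 without WT 2, 3 and 4, where p = 0.0667 was the smallest an exact permutation test could give. Relative to all genes, calls over all genes with WT 2, 3 and 4 left out were 432 rises and 163 falls, against 2355 and 2067, and fewer libraries entered that fit. With the replicate number as a block over numbers 1 to 4, 1 member rose and 0 fell relative to all genes, and 6 rose and 0 fell per spike-in count. Same-numbered libraries correlated at -0.17, -0.14, -0.33 and 0.16 in their deviations from the group means, so the numbers do not pair them, and 1 of the 4 shared numbers in WT correlated best with its own number. The cause of the changes was not tested. Foxd1 had the fewest counts of the 9, 75 to 289 a library.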
